A study of Mus musculus with 7 samples.

Results

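Transcripts of 34 skeletal muscle genes were followed through 4 mammary tumours of ECD transgenic mice and 3 control mammary glands. The genes were chosen by name among the 50600 genes of the deposited tables. They encode proteins of the sarcomere, of the Z disc and of calcium handling, with the creatine kinase Ckm and the oxygen store Mb. By textbook fibre type 14 are fast isoforms, 8 are slow isoforms and 12 are shared by both fibre types. All 34 were found in every table. The series compared transcripts of ECD transgenic tumours with those of control glands. ECD, or ecdysoneless, is a cell cycle regulator that works with chaperone and splicing proteins. Tumours 1a and 1b are adenosquamous carcinomas, tumour 3 is a spindle cell carcinoma and tumour 4 is a papillary carcinoma, each sampled from its central part. The controls are mammary glands 1, 2 and 3. Not given in the sources used here are the strain, the age, the genotype of the controls and the promoter and species of the transgene. The tables count mouse genes, so they hold no check of a transgene of unstated species. By the design text all 7 samples are independent. Tumours 1a and 1b carry the same number, however, and no label tells if 1 animal gave both. The p-values below weigh the difference between tumours and glands against the variation between libraries of the same group. If 1 animal gave tumours 1a and 1b, that variation is not all between animals.

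A muscle fibre contracts when myosin heads of the thick filament pull on actin of the thin filament, inside sarcomeres held together by Z discs and the giant proteins titin and nebulin. The signal to contract is calcium: the voltage sensor Cacna1s opens the release channel Ryr1, calcium binds troponin C, and the pump Atp2a1 returns it to a store lined by calsequestrin. Fast and slow fibres build the same machine from different gene copies, so that troponins, myosin chains and calsequestrins come in fast and slow pairs. The mouse mammary fat pad lies under the skin next to a thin muscle sheet and body wall muscle, and its own contractile cells are smooth muscle and myoepithelium, which use other actin and myosin genes.

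The start regions of 4 members are shown because these members mark the range described below. Myh4 was the most abundant fast myosin of the glands, Acta1 is the skeletal actin, and the fast and slow calsequestrins Casq1 and Casq2 had fold changes that lay furthest apart among the pairs tested. Each line gives the 250 bases upstream of a RefSeq transcript start on GRCm38.p6, 5′ to 3′ in the direction of transcription. The windows are chr11:67237562-67237811 on the plus strand for Myh4, chr8:123894776-123895025 on the minus strand for Acta1, chr1:172219896-172220145 on the minus strand for Casq1 and chr3:102086165-102086414 on the plus strand for Casq2. Capitals mark matches to an E-box (CANNTG, the pattern bound by MyoD family factors), a TATA box (TATAAA), a MEF2 site or a CArG box (the pattern bound by serum response factor), searched on both strands.
Myh4: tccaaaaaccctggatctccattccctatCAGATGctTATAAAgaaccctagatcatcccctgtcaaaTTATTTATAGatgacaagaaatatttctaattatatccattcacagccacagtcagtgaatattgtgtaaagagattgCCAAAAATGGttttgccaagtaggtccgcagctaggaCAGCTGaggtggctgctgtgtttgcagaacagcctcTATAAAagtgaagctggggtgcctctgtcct
Acta1: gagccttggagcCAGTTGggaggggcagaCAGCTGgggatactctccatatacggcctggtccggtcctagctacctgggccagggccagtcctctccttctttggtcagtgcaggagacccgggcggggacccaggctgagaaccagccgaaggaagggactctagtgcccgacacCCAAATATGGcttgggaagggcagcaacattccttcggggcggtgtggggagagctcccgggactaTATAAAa
Casq1: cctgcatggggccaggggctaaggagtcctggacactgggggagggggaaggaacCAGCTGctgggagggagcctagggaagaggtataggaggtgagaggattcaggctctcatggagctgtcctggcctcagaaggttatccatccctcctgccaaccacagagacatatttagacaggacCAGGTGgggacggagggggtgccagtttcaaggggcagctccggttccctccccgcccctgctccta
Casq2: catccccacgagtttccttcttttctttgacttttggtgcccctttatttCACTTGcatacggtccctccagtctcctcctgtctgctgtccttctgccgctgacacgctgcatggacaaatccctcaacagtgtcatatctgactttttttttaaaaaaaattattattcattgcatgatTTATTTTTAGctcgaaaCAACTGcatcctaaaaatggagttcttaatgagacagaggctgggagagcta
In the Myh4 window the MEF2 site overlaps a TATA box match on the other strand. A RefSeq window was available for 27 of the 34 members. An E-box lay in the window of 24 of the 27 genes (88.9%), against 69.3% of all 27025 genes with a window. A TATA box match lay in 6 (22.2%, against 14.3% of all genes), a MEF2 site in 5 (18.5%, against 3.42%) and a CArG box in 3 (11.1%, against 1.62%). These are matches of letters only.

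Depth set what could be seen. Total counts were 5420562 to 28638143 in the tumours and 5148438 to 35631279 in the glands. Genes of mitochondrial DNA took 18.34% to 32.61% of counts in the tumours and 48.36% to 64.83% in the glands. Levels are given as CPM on library sizes scaled by edgeR's TMM method, with factors from 0.556 in control gland 1 to 1.543 in tumour 3. A count of 3 corresponds to 0.103 to 0.403 CPM in the tumours and to 0.0935 to 1.05 CPM in the glands. The 34 genes held 14676 counts in tumour 1a, 1890 in tumour 1b, 636 in tumour 3 and 425 in tumour 4, so that in tumours 3 and 4 most members rest on a handful of reads: 27 and 28 of the 34 had at most 10 counts.

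The muscle genes filled a large part of 2 gland libraries and almost nothing of the other libraries. They took 0.184% of all counts in tumour 1a, 0.0349% in tumour 1b, 0.00956% in tumour 3 and 0.00148% in tumour 4. In control glands 1 and 3 they took 3.63% and 6.48%, but in control gland 2 only 0.0141%. The exact 95% interval, which covers counting error only, was 0.00135% to 0.00163% in tumour 4 and 0.0137% to 0.0145% in control gland 2. Control gland 2 therefore lay below tumours 1a and 1b and above tumours 3 and 4. Titin alone, whose transcript is by far the longest of the set, held 40.2% and 45.2% of the muscle counts in tumours 1a and 1b, 8.33% and 33.6% in tumours 3 and 4, and 58.7%, 48.0% and 51.1% in glands 1, 2 and 3. In bulk tissue, fewer muscle cells and less muscle RNA per cell cannot be told apart.

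**Figure D1:**
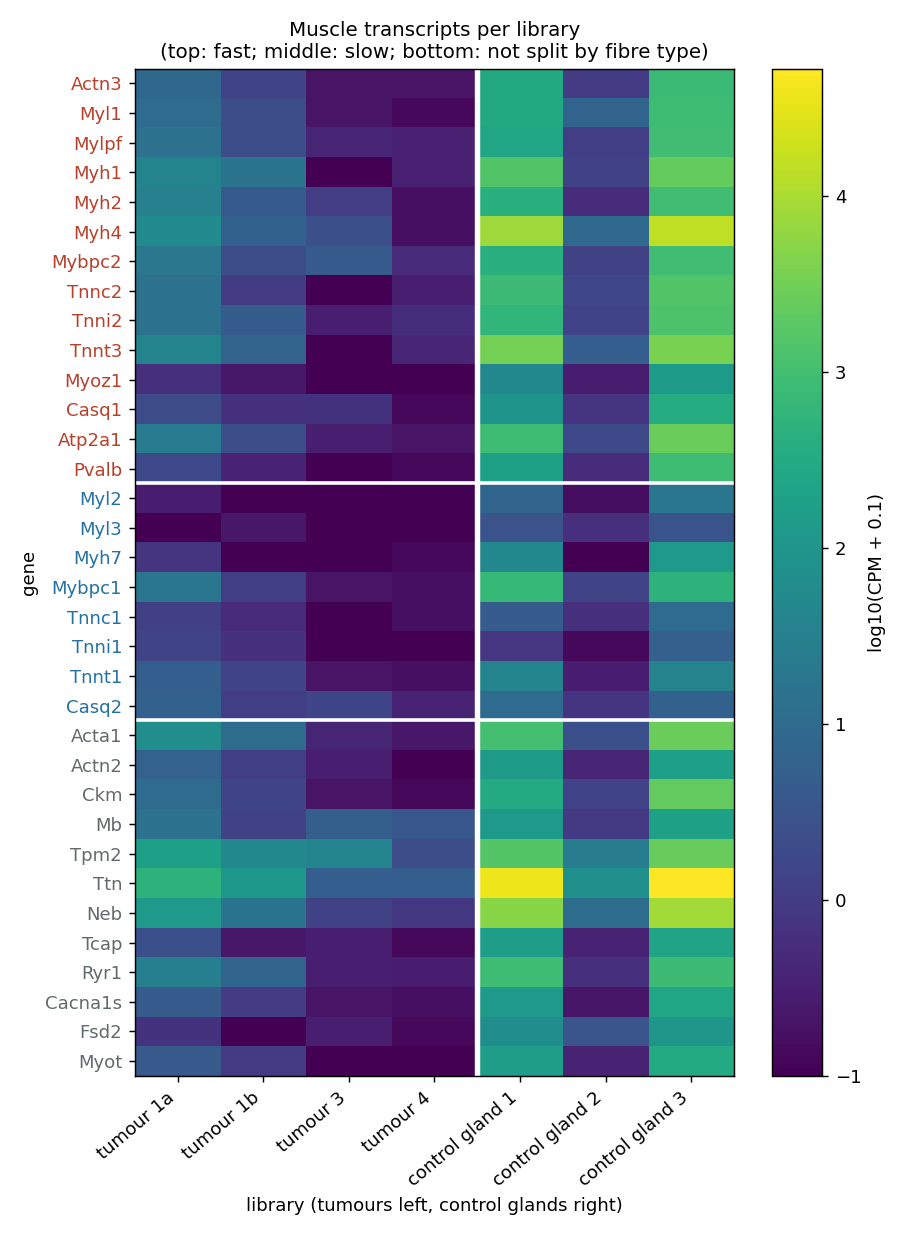
Level of each of the 34 muscle genes (rows, ordered as fast, slow and shared genes) in each library (columns, 4 tumours on the left and 3 control glands on the right), as log10 of CPM plus a small constant, so that the darkest colour is 0 counts. Control glands 1 and 3 are bright in nearly every row, control gland 2 lies between tumour 1b and tumour 3, and tumours 3 and 4 are darkest.

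Of the 34 genes, 29 had enough counts to be tested, and 1 of them, Fsd2, fell in the tumours at an adjusted p under 0.05 (edgeR quasi-likelihood test, Benjamini-Hochberg over 14149 genes). Of all genes tested, 4.57% fell and 3.9% rose at this threshold. All 29 log2 fold changes, tumour over control, were negative, with a median of -6.95, against a median of 0.12 over all genes tested, and 27 were at an unadjusted p under 0.05, where 13.1% of all genes tested were lower. The medians were -7.21 for the 13 fast genes tested, -3.81 for the 4 slow genes tested and -6.71 for the 12 shared genes. The number of calls depended on the test and on the libraries. DESeq2 called 27 of the 29 lower and 0 higher, where it called 11.3% of all genes tested lower and 12.8% higher. limma-voom called 0 of 29, where it called 6.31% of all genes lower and 4.46% higher. At an unadjusted limma-voom p under 0.05 were 3 of the 29, and 4279 of all 14149 genes in either direction. Without control gland 2, edgeR called 10 of 34 lower and 0 higher, where 2.61% of all genes were called lower and 1.24% higher: Casq1, Fsd2, Mb, Mybpc2, Myh7, Myl2, Myl3, Myoz1, Pvalb and Tcap. Of these, Myh7, Myl2, Myl3 and Myoz1 were not tested with all 7 libraries and had at most 8 counts in any tumour. They passed the filter only through glands 1 and 3, so their lower direction was set in advance. With no filter on low counts edgeR called 6 of 34 lower and 0 higher, where 1.8% of all genes were called lower and 1.13% higher. Among the 6 were Myl2, Myl3 and Myoz1, which the filter had left out of the main test. With control gland 1, control gland 3, tumour 1b or tumour 3 left out, edgeR called 0 of 32, 29, 31 and 32 members. In these fits 1.41%, 0.499%, 1.45% and 2.2% of all genes were called lower. At an unadjusted edgeR p under 0.05 were 20, 18, 19 and 23 of these members. The counts over all genes, in either direction, were 3590 of 16935, 3087 of 14835, 3672 of 15406 and 4000 of 15519. The median log2 fold change of the members was -8.78 without tumour 1a and -5.79 without control gland 3. Every tumour lay below every gland for 1 of the 29 genes, Fsd2, against 13.2% of all genes tested, and for Myl3 among the 5 genes with too few counts to test. For Fsd2 this follows from the filter on low counts, as described below.

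**Figure D2:**
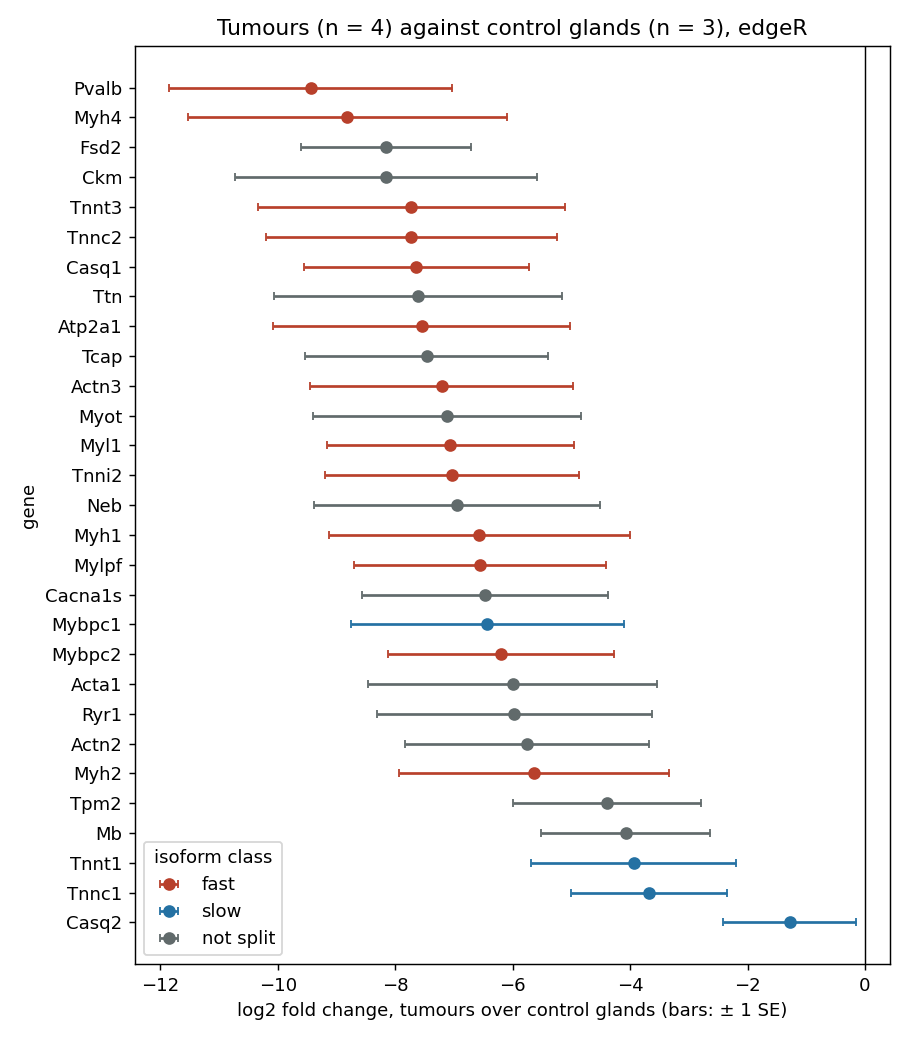
Log2 fold change, tumour over control, with bars of 1 standard error (SE), for the 29 muscle genes tested (4 tumours, 3 glands, edgeR). Pvalb lies lowest at -9.44 and Casq2 highest at -1.28, and the slow genes Tnnt1, Tnnc1 and Casq2 lie nearest to 0.

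The thick filament is built of myosin heavy chains, their light chains and myosin-binding protein C. Myh4 encodes the heavy chain of the fastest (IIB) fibres and lies on chromosome 11 (67238029 to 67260446, plus strand, GRCm38), beside Myh2 and Myh1. Its level was 58.1, 5.78, 2.34 and 0.0689 CPM in tumours 1a, 1b, 3 and 4, against 7663, 8.79 and 14720 CPM in glands 1, 2 and 3. Tumour 1a thus exceeded gland 2 while glands 1 and 3 stood far above every tumour, and the log2 fold change of -8.81 (SE 2.72) did not pass (edgeR adjusted p = 0.0849). Myh1, the heavy chain of IIX fibres, had 37.5, 15.9, 0 and 0.241 CPM in the tumours and 1467, 1.15 and 2347 CPM in the glands. Myh2, the heavy chain of IIA fibres, had 31.3, 4.03, 0.974 and 0.0689 CPM in the tumours and 420, 0.436 and 938 CPM in the glands. For both, tumours 1a and 1b lay above gland 2. Myh7, the slow and cardiac heavy chain, had 0.673, 0, 0 and 0.0344 CPM in the tumours and 46.9, 0 and 116 CPM in the glands, and counts in too few libraries to be tested.

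Among the light chains, the fast essential chain Myl1 had 9.76, 2.15, 0.0974 and 0.0344 CPM in the tumours and 296, 7.01 and 898 CPM in the glands. The fast regulatory chain Mylpf had 13.4, 2.29, 0.292 and 0.241 CPM in the tumours and 233, 1.03 and 907 CPM in the glands. The ratio of gland 3 to gland 2 was 128 for Myl1, the smallest of the fast members, whose other ratios ran from 546 for Casq1 to 2150 for Myh2. The slow partners were near the detection limit in the tumours, where Myl2 had 2 counts in all and Myl3 had 1. In the glands Myl2 had 20, 2 and 372 counts and Myl3 had 8, 16 and 65. The slow myosin-binding protein Mybpc1 had 17.2, 1.08, 0.0974 and 0.0689 CPM in the tumours and 686, 1.40 and 508 CPM in the glands, so that gland 1 exceeded gland 3. Its fast partner Mybpc2 had 18.2, 2.29, 4.38 and 0.413 CPM in the tumours and 436, 1.28 and 950 CPM in the glands. Tumour 3, with 45 counts of Mybpc2 and 1 of Mybpc1, stood above gland 2 for the fast gene only.

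The thin filament carries actin, tropomyosin, nebulin and the troponin complex. Acta1 had 66.1, 10.6, 0.292 and 0.138 CPM in the tumours and 1056, 2.43 and 2647 CPM in the glands (log2 fold change -6.00, SE 2.46, edgeR adjusted p = 0.158). Nebulin, the ruler of the thin filament, had 126, 15.9, 1.17 and 0.758 CPM in the tumours and 4952, 10.6 and 8367 CPM in the glands. For both genes gland 2 lay below tumours 1a and 1b and above tumours 3 and 4. Tpm2, a tropomyosin that smooth muscle and other cells also use, had 174, 46.4, 38.2 and 2.17 CPM in the tumours and 1550, 27.0 and 2521 CPM in the glands. It made up 392 of the 636 muscle counts of tumour 3 (61.6%).

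Troponin C binds calcium, troponin I blocks contraction and troponin T ties both to tropomyosin. Fast Tnnc2 had 13.6, 0.942, 0 and 0.207 CPM in the tumours and 839, 1.53 and 1506 CPM in the glands, whereas Tnnc1, the slow and cardiac form, had 1.09, 0.403, 0 and 0.0689 CPM in the tumours and 4.55, 0.530 and 9.70 CPM in the glands. Fast Tnni2 had 14.1, 4.57, 0.195 and 0.448 CPM in the tumours and 574, 1.31 and 1302 CPM in the glands. Slow Tnni1 had 1.43, 0.538, 0 and 0 CPM in the tumours and 0.699, 0.0312 and 5.53 CPM in the glands. Tnni1 was the only member of the 34 that was higher in any tumour than in gland 1 or gland 3, with 17 counts in tumour 1a and 2 in gland 1. Fast Tnnt3 had 37.5, 6.59, 0 and 0.310 CPM in the tumours and 3304, 5.05 and 3733 CPM in the glands. Slow Tnnt1 had 5.05, 1.34, 0.0974 and 0.0689 CPM in the tumours and 38.8, 0.187 and 36.4 CPM in the glands, with a log2 fold change of -3.94 (SE 1.74, edgeR adjusted p = 0.183).

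Titin spans the sarcomere from Z disc to M band, and the actinins, myotilin, Tcap and Myoz1 belong to the Z disc. Ttn had 497, 115, 5.16 and 4.93 CPM in the tumours and 38380, 75.2 and 52860 CPM in the glands. Per kb of exon, which allows genes to be compared, its level in glands 1 and 3 was 328 and 452 CPM per kb, below the 1274 and 2447 CPM per kb of Myh4. Actn3, the actinin of fast fibres, had 8.41, 1.34, 0.0974 and 0.103 CPM in the tumours and 297, 0.873 and 806 CPM in the glands. Actn2, found in all fibres, had 6.23, 1.08, 0.195 and 0 CPM in the tumours and 131, 0.312 and 170 CPM in the glands. For Tcap, Myot and Myoz1 the 4 tumours spanned 0 to 3.79 CPM, glands 1 and 3 spanned 45.8 to 318 CPM, and gland 2 lay between 0.187 and 0.281 CPM.

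In the calcium handling genes, too, glands 1 and 3 stood highest, and the place of gland 2 varied. The release channel Ryr1 had 29.5, 6.86, 0.195 and 0.172 CPM in the tumours and 870, 0.530 and 854 CPM in the glands. Its voltage sensor Cacna1s had 4.29, 0.942, 0.0974 and 0.0689 CPM in the tumours and 122, 0.125 and 233 CPM in the glands. Both were higher in tumours 1a and 1b than in gland 2. The calcium pump of fast fibres, Atp2a1, had 22.5, 2.29, 0.195 and 0.103 CPM in the tumours and 897, 1.78 and 2621 CPM in the glands (log2 fold change -7.55, SE 2.52, edgeR adjusted p = 0.103). Pvalb, the calcium buffer parvalbumin of fast fibres, had 1.77, 0.269, 0 and 0.0344 CPM in the tumours and 180, 0.436 and 885 CPM in the glands. Its log2 fold change of -9.44 (SE 2.41) was the lowest of the members tested and did not pass (edgeR adjusted p = 0.0544).

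Fsd2, a relative of the muscle protein myospryn, was the member that passed. It had 7, 0, 2 and 1 counts in tumours 1a, 1b, 3 and 4, or 0.589, 0, 0.195 and 0.0344 CPM, against 180, 100 and 2309 counts in glands 1, 2 and 3, or 62.9, 3.12 and 108 CPM. All 4 tumours lay below all 3 glands, gland 2 included, and the log2 fold change was -8.16 (SE 1.45, edgeR adjusted p = 0.0205). The filter on low counts kept Fsd2 only through the 3 glands, because every tumour was under its minimum count of 10. A gene kept in this way has every tumour below every gland. The direction and the lack of overlap therefore add no support of their own. The call was lost without control gland 1 (adjusted p = 0.0649), control gland 3 (0.0761), tumour 1b (0.0584) or tumour 3 (0.0545) and with limma-voom (0.244).

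The fast calsequestrin Casq1 had 1.94, 0.538, 0.584 and 0.0344 CPM in the tumours and 92.3, 0.654 and 357 CPM in the glands, with a log2 fold change of -7.64 (SE 1.92, edgeR adjusted p = 0.0517). Casq2, the slow and cardiac form, had 5.81, 1.08, 1.46 and 0.276 CPM in the tumours and 9.79, 0.623 and 5.81 CPM in the glands. Tumour 1a reached the level of gland 3, and tumours 1b and 3 exceeded gland 2. Its log2 fold change of -1.28 (SE 1.13) was the smallest in size and had the largest adjusted p of the members tested (edgeR adjusted p = 0.485).

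Ckm and Mb, the metabolic members, differed in the tumours. Ckm, the muscle creatine kinase, had 10.2, 1.48, 0.0974 and 0.0344 CPM in the tumours and 316, 1.31 and 2199 CPM in the glands. Mb, the oxygen store myoglobin, had 14.6, 1.21, 5.36 and 3.48 CPM in the tumours and 123, 0.841 and 190 CPM in the glands, so that all 4 tumours exceeded gland 2. Mb gave 55 of the 636 muscle counts of tumour 3 and 101 of the 425 of tumour 4 (23.8%). An antisense gene, Gm49540, shares 27.6% of the exon bases of Mb, and the library kit does not mark strand.

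Within a library, fast isoforms outweighed their slow partners nearly everywhere, by the most in glands 1 and 3. Summed over members per kb of exon, the 14 fast genes reached 105, 18.0, 2.58 and 1.29 CPM per kb in tumours 1a, 1b, 3 and 4, and the 8 slow genes 9.82, 1.84, 0.600 and 0.217 CPM per kb. In glands 1, 2 and 3 the fast genes reached 6171, 14.0 and 11740 CPM per kb and the slow genes 188, 1.42 and 166 CPM per kb. The fast sum was thus 10.7, 9.75, 4.3 and 5.92 times the slow sum in the tumours and 32.9, 9.92 and 70.9 times in the glands. Glands 1 and 3 lay above all tumours and gland 2 lay among them. The tumour values rest on 373, 34, 17 and 15 slow counts. Single genes made up much of some sums. Mybpc1 gave 152 of the slow 188 CPM per kb in gland 1 and 112 of 166 in gland 3. In tumour 3 Casq2 gave 0.534 of the slow 0.600 CPM per kb, and Mybpc2 gave 1.21 of the fast 2.58. The ratios of sums therefore do not describe each class as a whole.

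Ratios of single pairs were taken per kb of exon where both partners held at least 10 counts, which gave 6 of 9 pairs in tumour 1a, 1 in tumour 1b, none in tumours 3 and 4, and 7, 5 and 9 in glands 1, 2 and 3. Of these 28 ratios, 26 were above 1. The troponin C ratio Tnnc2 to Tnnc1 was 16.2 in tumour 1a and 240, 3.75 and 202 in the glands. The troponin T ratio Tnnt3 to Tnnt1 was 10.4 and 6.82 in tumours 1a and 1b and 118 and 143 in glands 1 and 3. The troponin I ratio Tnni2 to Tnni1 was 23.6 in tumour 1a and 566 in gland 3. For all 3 troponins the exact 95% counting intervals of tumour 1a and gland 3 did not overlap.

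The pairs differed in how far fast exceeded slow. Myosin-binding protein C had ratios on both sides of 1, with Mybpc2 over Mybpc1 at 1.33 in tumour 1a and 0.797, 1.14 and 2.35 in the glands. The exact 95% counting intervals were 0.742 to 0.856 in gland 1 and 2.29 to 2.40 in gland 3. The actinin ratio Actn3 to Actn2, with a partner that is not limited to slow fibres, was 1.77 in tumour 1a and 2.96, 3.66 and 6.19 in the glands. The calsequestrin ratio Casq1 to Casq2 was 0.468 in tumour 1a (exact 95% interval 0.278 to 0.759), and 13.2, 1.47 and 86.2 in the glands. In the other tumours, with 1 to 6 counts of Casq1, its level also lay below that of Casq2: 0.276 against 0.393 CPM per kb in tumour 1b, 0.300 against 0.534 in tumour 3 and 0.0177 against 0.101 in tumour 4. Light chain and heavy chain ratios could be formed in glands only: Mylpf over Myl2 was 61.2 and 95.5 in glands 1 and 3, Myl1 over Myl3 was 13.9 and 291 in glands 2 and 3, and the 3 fast heavy chains over Myh7 gave 288 and 219 in glands 1 and 3. Gland 2 had lower ratios than gland 3 in each of the 5 pairs it allowed.

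**Figure D3:**
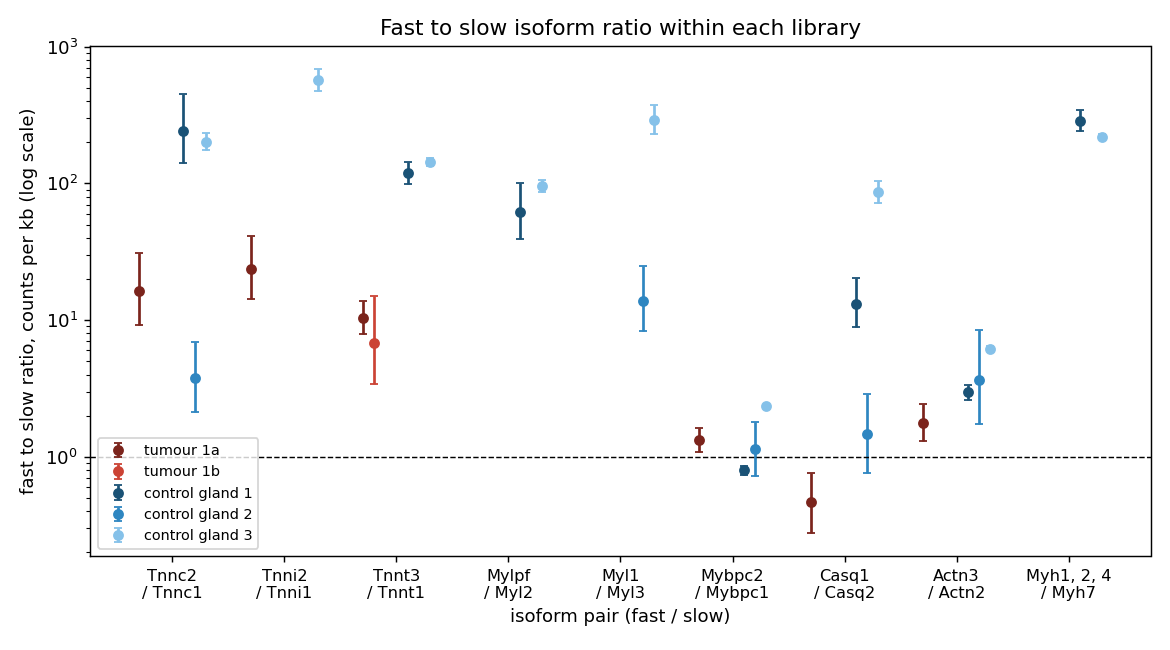
Ratio of fast to slow isoform (counts per kb of exon, log axis) for 9 pairs in each library with at least 10 counts of both partners. Points are ratios, bars are exact 95% intervals that cover counting error only, and the dashed line marks equal levels. Tumour 1a lies below each of glands 1 and 3 that has a ratio for the troponins and calsequestrin, and above gland 2 for troponin C. Gland 1 has no troponin I ratio. Tumours 3 and 4 allowed no ratio.

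Among the adult heavy chains the tumours held a smaller share of Myh4 and a larger share of Myh2 than the glands. Myh4 took 48.2%, 23.9%, 74.0% and 18.2% of the 4 heavy chains per kb in tumours 1a, 1b, 3 and 4, and 81.2%, 85.8% and 82.6% in glands 1, 2 and 3. Myh2 took 21.9%, 14.1%, 26.0% and 15.3% in the tumours and 3.75%, 3.59% and 4.44% in the glands. Neither share overlapped between the groups, and gland 2, whose muscle share of counts lay within the range of the tumours, had shares close to those of the other glands. The tumour mean of Myh2 was 19.3 ± 5.63% (SD, n = 4) against 3.93 ± 0.45% in glands (SD, n = 3). An exact two-sided permutation test over the 7 libraries, chosen after these shares were seen, gave p = 0.0571 for Myh2 and for Myh4. The adjusted p over the 4 chains tested was 0.114. This p is the smallest the design allows and follows from the lack of overlap alone, so it adds nothing to it. The test also weighs every library alike, whatever its counts.

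The remaining chains showed no such separation. Myh1 took 29.5%, 62.1%, 0% and 60.2% in the tumours and 14.7%, 10.6% and 12.5% in the glands (exact permutation p = 0.229, adjusted p = 0.305), and Myh7 took at most 6.34% in any tumour and 0.45% in any gland. In tumour 3 the exact 95% interval of the Myh4 share of counts, 52.5% to 84.9%, covered the gland shares of counts of 79.8%, 84.7% and 81.2%. The shares rest on 1517, 191, 34 and 12 counts in the tumours and on 27448, 333 and 386731 in the glands. In tumour 4 the exact 95% interval of the Myh2 share of counts was 2.09% to 48.4%. Myh1, Myh2 and Myh4 are close copies, and how the authors' counting split reads between them is uncertain.

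**Figure D4:**
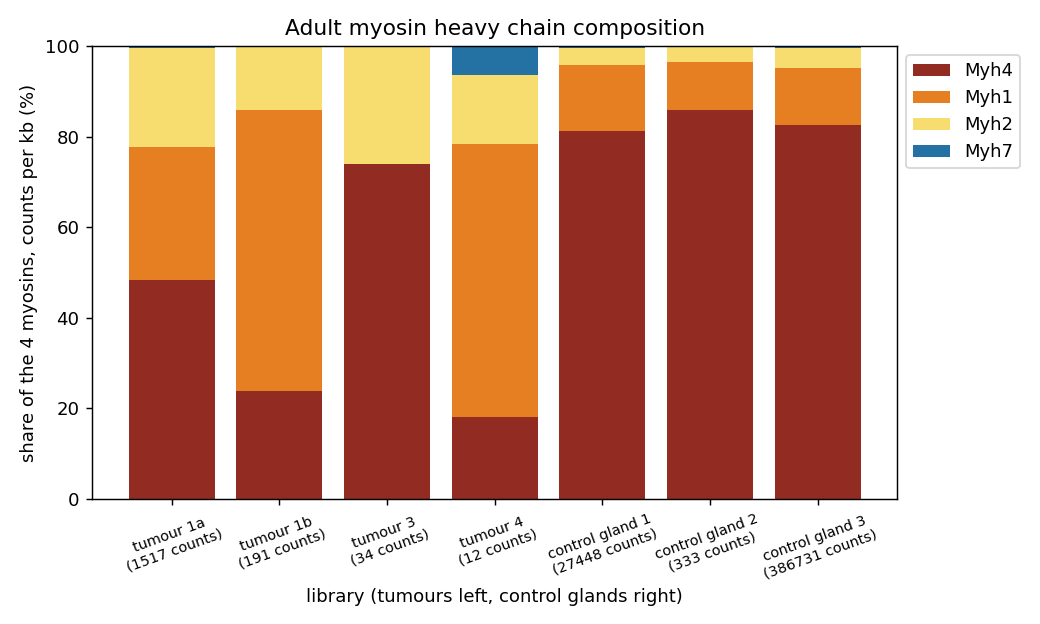
Share of each of 4 adult myosin heavy chains in their summed level (counts per kb of exon, in percent) in the 4 tumours (left) and 3 control glands (right), with the number of counts behind each bar. Myh4 fills 81.2% to 85.8% of the gland bars and 18.2% to 74.0% of the tumour bars. The bars of tumours 3 and 4 rest on 34 and 12 counts.

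The 3 glands differed widely from each other. Gland 2 was the lowest gland for all 34 members. Gland 3 exceeded gland 2 by a median of 9.54 on the log2 scale over the 33 members with a count in gland 2, and by more than 100-fold for 28 of them, up to 2150-fold for Myh2. The 5 smaller ratios were those of Myl3 (6.11), Casq2 (9.32), Tnnc1 (18.3), Fsd2 (34.7) and Tpm2 (93.3). Glands 1 and 3 were much closer to each other: gland 3 was higher for 30 of 34 members, with a median of 0.94 on the log2 scale, and 28 were within 3-fold. The ratio of gland 3 to gland 1 ranged from 0.594 for Casq2 to 7.91 for Tnni1, and Ckm (6.96) and Pvalb (4.91) also stood high. Among all members, slow genes had the smaller ratios between glands 3 and 2, with a median of 5.89 on the log2 scale against 9.75 for fast genes (computed with a prior count of 2). The prior count lowers the ratio of genes with few counts in gland 2, such as Myl2 (2 counts), Tnni1 (1) and Tnnt1 (6). Without the prior count these ratios were 280, 177.5 and 194.5. Slow ratios then ran from 6.11 for Myl3 to 362 for Mybpc1, and fast ratios from 128 for Myl1 to 2150 for Myh2.

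**Figure D5:**
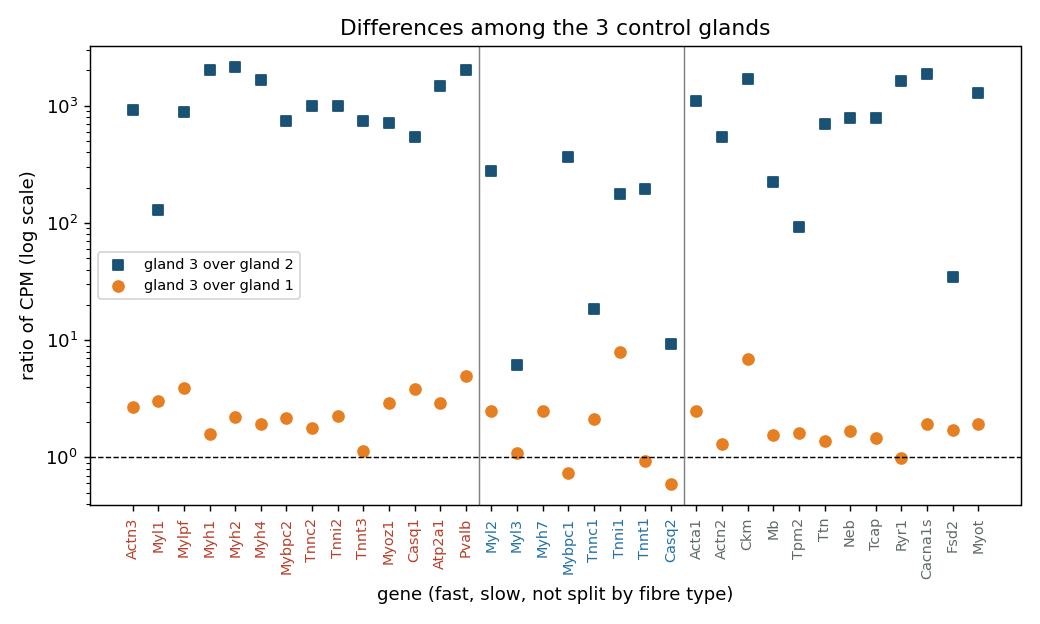
Ratio of CPM between control glands (log axis) for each muscle gene, ordered as fast, slow and shared. Squares give gland 3 over gland 2 and circles gland 3 over gland 1. Squares run from 6.11 to 2150 and circles from 0.594 to 7.91. Myh7 has no square because gland 2 had 0 counts.

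The tumours also formed an order. Tumour 1a was the highest tumour for 33 of 34 members, Myl3 being the exception with a lone count in tumour 1b. Tumour 1a exceeded gland 2 for 32 members, tumour 1b for 21, tumour 3 for 5 (Mb, Mybpc2, Myh2, Casq2 and Tpm2) and tumour 4 for 2 (Mb and Myh7). Myh7 rests on 1 count in tumour 4 against 0 in gland 2, and Myh2 on 10 counts in tumour 3 against 14 in gland 2. Tumour 1a exceeded tumour 1b, of the same histology and number, by a median of 2.36 on the log2 scale. With 1 spindle cell and 1 papillary tumour, histology and tumour cannot be told apart.

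Most other genes of the muscle fibre had negative fold changes too: 21 of 22 sarcomere and Z disc genes tested, 11 of 12 excitation and calcium genes, 12 of 12 energy enzymes and 5 of 6 myogenic regulators. Over all genes tested by edgeR the median log2 fold change was 0.12, and 4.57% fell and 3.9% rose at an adjusted p under 0.05. Of the 22 other sarcomere and Z disc genes tested, 4 fell and 0 rose in the tumours (edgeR adjusted p under 0.05), among them the M band protein Myom1 (log2 fold change -6.60, adjusted p = 0.0396) and the thin filament protein Lmod3 (-7.72, adjusted p = 0.0414), and the list's median was -4.94. Of the 12 other excitation and calcium genes, 2 fell and 0 rose: the junction protein Jph1 (-5.80, adjusted p = 0.0417) and the calcium store protein Srl (-4.75, adjusted p = 0.045). Of the 12 muscle energy enzymes, 4 fell and 0 rose, led by Cox7a1 (-4.97, adjusted p = 0.0282) and the phosphorylase kinase subunit Phkg1 (-6.11, adjusted p = 0.029). Gland 2 was the lowest gland for 10 of the 13 enzymes listed. It was not the lowest for Cox7a1 (96.9, 26.5 and 25.5 CPM in glands 1, 2 and 3) or for Aldoa (557, 824 and 2048 CPM), which also fell. Of the 6 myogenic regulators tested, Mef2c fell (-3.01, adjusted p = 0.0491), and the muscle stem cell and myoblast factors Pax7, Myf5 and Myod1 were too scarce to test, with 0 to 3 counts in the tumours and 0 to 22 in the glands. Of the neuromuscular junction list 1 of 8 genes could be tested, Chrnb1, and it did not pass (-1.15, adjusted p = 0.202). Mef2c, Cox7a1 and Aldoa are also made outside muscle.

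The 10 other genes whose log2 CPM followed the mean of the members most closely over the 7 libraries, among the 7843 genes whose mean log2 CPM reached 3, were Xirp2 (Pearson r = 0.990), Pygm (0.982), Myom1 (0.980), Pde4dip, Rilpl1, Smim13, Kcnj2, Sec23a, Cmya5 and Cacna2d1 (0.962). These r values describe 7 libraries, of which glands 1 and 3 were high and the other 5 low.

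Markers of other cells moved between libraries as well. Their calls stand beside 4.57% lower and 3.9% higher over all genes tested by edgeR. Adipocyte markers (7 of 7 lower in tumours at adjusted p under 0.05) summed to 136, 17.8, 6.92 and 11.2 CPM in tumours 1a, 1b, 3 and 4 and to 2933, 6137 and 4964 CPM in the glands, so that gland 2, lowest in muscle RNA, had the highest sum. Most of that sum was Fabp4 (3298 CPM) and Cfd (1654 CPM). Fabp4, Cfd, Lep, Plin1 and Retn were highest in gland 2. Adipoq and Cidec were highest in gland 3, at 377 and 265.6 CPM against 353.9 and 173.5 CPM in gland 2. Lymph node markers summed to 65.3 CPM in tumour 1a and at most 1.46 CPM in the other tumours, and to 5.24, 105 and 1.64 CPM in the glands. Smooth muscle and myoepithelial markers (1 of 7 lower, Lmod1) summed to 338, 193, 215 and 96.3 CPM in the tumours and 175, 303 and 427 CPM in the glands, without the drop in gland 2. In tumour 4 Oxtr alone gave 63.5 CPM of the sum, and Acta2 gave 7.92 CPM. Mammary epithelial markers (2 of 6 higher, Krt8 and Krt14) summed to 1022 to 1495 CPM in the tumours and 176 to 300 CPM in the glands. The heart list summed to 2.41 to 22.3 CPM in the tumours and 4.39 to 24.8 CPM in the glands, with Myl7 and Nppa at 0 in all 7 libraries. Its genes went different ways: Tnnt2 had 11.2, 18.7, 1.36 and 0.999 CPM in the tumours and 1.40, 0.281 and 0.375 CPM in the glands (log2 fold change 3.90, edgeR adjusted p = 0.109). Myh6 had at most 0.0974 CPM in the tumours and 12.2, 0 and 13.0 CPM in the glands. The skin list summed to 0.195 to 3.23 CPM in the tumours and 1.31 to 5.24 CPM in the glands, with Krt10 counted in all 7 libraries and Lor at 0 in all. Of the brown fat list 0 of 4 genes passed, with sums of 4.30 to 92.3 CPM in the tumours and 127 to 443 CPM in the glands. The highest tumour sum, in tumour 4, was almost all Cidea (92.0 CPM), and Ucp1 had 0 counts there. The part of these cells in the differences was not tested.

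Overlapping genes touch some values. Exon bases are shared with 20 genes on the opposite strand by 16 members. The share passes 20% for Mb, for Atp2a1 (21.9%, Rabep2) and for Tnnc2, where 74.0% of exon bases overlap the cell division gene Ube2c. Ube2c had 129, 42, 95 and 634 counts in the tumours and 0, 23 and 26 in the glands, and Tnnc2 had 162, 7, 0 and 6 in the tumours and 2400, 49 and 32130 in the glands. Without strand, reads that lie wholly within the shared bases cannot be told apart, whereas reads on other exon bases can.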

How the data were processed

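Per the labels' protocols, RNA came from 4 tumours and 3 control glands, and the TruSeq v2 kit used does not mark strand. STAR 2.5, RSEM 1.3, limma and GRCm38 are named in the submitters' processing notes, without their roles. The deposited tables hold 1 value per gene and library in a column headed TPM. Its sums of 5148436 to 35631302 differ between libraries, and 2.34% to 6.14% of the values were not whole, so they were taken for expected counts of the authors and were rounded here.

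The test was that of edgeR 4.0.16 (R 4.3.3): TMM scaling, filterByExpr (minimum count 10, minimum total 15), quasi-likelihood F test, two-sided, Benjamini-Hochberg over 14149 genes. Alternatives were DESeq2 1.42.0, limma-voom (limma 3.58.1), other scalings and filters, and leaving out each library. SE is the size of the log2 fold change over the square root of F. Lengths and positions came from GENCODE annotation on GRCm38, with the union of exons as length. Intervals are exact and cover counting error only. On simulated counts for this comparison, 81 of 99 genes with a log2 change of 4 were called, 4 of 99 with a change of 2, and 3 of 13816 without change. The changed genes were drawn at random from all genes tested, each with its own spread. These rates therefore do not give the chance of a call for the muscle genes, whose glands differed widely.

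The 34 genes, the other lists and the isoform pairs were chosen with earlier results of these data known. In full, genes were named by a rule: the isoform pairs, the calcium genes, the lowest and highest fold changes and adjusted p, the 2 smallest adjusted p of each other list, and the 10 genes most like the mean. The test of myosin shares was chosen after their values were seen. No 2 libraries were identical (chi-square per degree of freedom 85.0 to 374.9 within groups).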

Additional observations from a re-analysis of the deposited data

Results flagged for a closer look

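Among the 4 tumours, 3 of 34 members had a tumour far from the others by Dixon's test on log2 CPM (prior count 2), and chance flags about 1 in 20 groups. Myl2 stood high in tumour 1a at -1.78, with the other tumours all at -3.04. Myl3 stood high in tumour 1b at -1.96, with the other tumours all at -3.04. Myh7 stood high in tumour 1a at -0.33, with the others between -3.04 and -2.68. These values rest on 2, 1 and 8 counts. For Myl2 and Myl3 the other 3 tumours were tied at 0 counts, so any count above 0 would have stood apart.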

How the results depend on the processing

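In edgeR over all libraries 1199 of 14149 genes passed, 46.0% of them higher in tumours. DESeq2 gave 3403 (53.1% higher) and tumours 1a and 1b summed into 1 library gave 533. Leaving out 1 library gave 97 (without control gland 3) to 1351 genes (without tumour 4). Of the muscle genes 1 of 29 passed in edgeR, 27 of 29 in DESeq2 (1 adjusted p was not given), 0 of 29 in limma-voom and 6 of 34 with no filter. With at least 10 counts in 5 libraries 0 of 18 passed, where 524 of all 13192 genes were called lower. Fsd2 had too few counts to be tested there. With a library left out 0 to 10 passed, of 26 to 34 tested. Median-ratio and upper-quartile scaling, removal of mitochondrial genes, robust dispersion and the summed tumours kept Fsd2 as the only call. Over these alternatives and the block by number described here last 439 fold changes of single members kept their side of the threshold, 33 moved past it and 6, all of Fsd2, moved back, and none changed sign. The ratio of Mybpc2 to Mybpc1 in gland 2 was 1.14 per kb of exon union, 0.99 with the longest transcript and 0.911 with no length. Of 56 ratios under another length, 6 moved by over 1.5 times: Tnni2 to Tnni1 was 9.82 in tumour 1a and 236 in gland 3 with no length, and Mylpf to Myl2 was 38.7 and 60.4 in glands 1 and 3 with the longest transcript and 33.4 and 52.0 with no length. Requiring 30 counts of each partner left 16 ratios above 1 in place of 26, because fewer pairs qualified. The median log2 ratio of gland 3 to gland 2 stayed between 9.46 and 9.54 under 3 other scalings. Tumours and glands share the numbers 1 (tumours 1a and 1b, gland 1) and 3, but no label says that a number pairs them, and deviations from the group means of same-numbered libraries had correlations of -0.149, 0.007 and -0.036 over 14149 genes. A replicate block by number, chosen after seeing the data, left 0 genes (3021 at an unadjusted p under 0.05) and 0 muscle genes (28 of 29 at an unadjusted p under 0.05) past the threshold in edgeR, with Fsd2 at adjusted p = 0.0624. The causes of the other changes were not tested. Counts of 10 or fewer in most members limit tumours 3 and 4.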

Other observations

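Myh3 and Myh8, the embryonic and perinatal myosin heavy chains, were counted beside the 4 adult chains. Together they held 139 of 1656 heavy chain counts in tumour 1a (8.39%, exact 95% interval 7.1% to 9.83%), 12 of 203 in tumour 1b (5.91%, 3.09% to 10.1%), 0 of 34 in tumour 3 (exact upper limit 10.3%) and 2 of 14 in tumour 4 (14.3%, 1.78% to 42.8%). In glands 1 and 3 they held 8 of 27456 (0.0291%) and 161 of 386892 (0.0416%), and in gland 2 they held 0 of 333 (exact 95% upper limit 1.1%). Tumours 1a and 1b thus lay above every gland in this share beyond counting error. Ncam1, which forming fibres and many other cells carry, had 71.0, 50.3, 4.48 and 1.89 CPM in the tumours and 4.20, 2.18 and 4.69 CPM in the glands (log2 fold change 3.13, edgeR adjusted p = 0.154). Myog, a regulator of fibre formation, had 16, 2, 0 and 1 counts in the tumours and 12, 0 and 56 in the glands.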
